A study of Rattus norvegicus with 8 samples.

Results

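The comparison described here sets rat spinal cord after a moderate contusion against spinal cord after a mild one. It uses 4 of the 8 single-cell RNA libraries of the study, the 2 whose title is Moderate and the 2 whose title is Mild, and 33324 of the 57296 cells that passed the filters in the series, 17375 in the Moderate and 15949 in the Mild libraries. Cells were kept when they held at least 1000 unique molecular identifiers (UMIs, each standing for 1 captured transcript) and at most 10% of their UMIs came from the 13 genes whose symbol starts with Mt-, the protein-coding genes of the mitochondrial genome.

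The animals were female Wistar rats of 8 weeks. A weight of 10 g fell on the exposed cord at thoracic level 9. The drop height was 25 mm for Moderate, 12.5 mm for Mild and 50 mm for Severe, and Sham rats only had the bone over the cord removed. All cords were taken 7 days later, as 10 mm of tissue around the epicentre, digested with enzymes and loaded on the 10x Genomics Chromium 3' platform. A contusion differs from a cut in that the dura stays closed and a rim of white matter is spared, and the group names stand for drop heights and not for a measured loss of function. The study's text speaks of as many sequenced cords as libraries, which implies 1 cord per library, though the labels name no animals. The p-values below set a difference between groups against the spread between libraries, in which differences between animals and technical ones cannot be told apart. A difference in handling between the Mild and the Moderate libraries as sets cannot be told apart from that in drop height. The 2 Severe libraries entered the gene fits, where they helped to set the spread between libraries, the genes tested and the scaling of the libraries. The contrast itself was Moderate against Mild, and the 2 Sham libraries are given only as values, for some of the results.

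After a contusion, resident microglia and blood-borne monocytes fill the lesion as macrophages, which engulf myelin and dead cells and handle the lipid they take up. Oligodendrocytes, the cells that wrap axons in myelin, die near the epicentre in the first days and continue to be lost outward along the tracts, while oligodendrocyte precursor cells (OPCs) divide and later replace part of them. Fibroblasts of the meninges and of vessels lay down a collagen scar. Cells under protein-folding stress switch on heat shock genes through the transcription factor Hsf1, whose products are chaperones that refold or hold damaged proteins.

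Subsets of cells were gated by UMIs of their own marker genes, and each was summed over its cells in a library. The Tyrobp gate (at least 3 UMIs of Tyrobp, an adaptor of myeloid receptors) held 25918 cells of the 4 libraries. The Ptprz1-Olig gate (at least 2 UMIs of Ptprz1 and at least 2 of Olig1 and Olig2 together, the OPC-type genes) held 3164 cells. The Mag-Mog gate (at least 3 UMIs of these myelin genes, Mag and Mog) held 2903 cells, and the Collagen gate (at least 10 UMIs of Col1a1, Col3a1 and Dcn together) held 1659 cells. The gates overlap, since a cell may pass more than one. Of the Mag-Mog cells, 30.5% and 24.3% in the Mild and 36.4% and 24.0% in the Moderate libraries also passed the Tyrobp gate. The same share of Ptprz1-Olig cells was 28.0% and 21.5% against 31.6% and 24.7%. That of Collagen cells was 35.1% and 22.3% against 43.1% and 33.9%. In turn, 3.92% and 6.78% of the Mild and 1.06% and 1.015% of the Moderate Tyrobp cells also passed the Mag-Mog gate. The Ptprz1-Olig gate was also passed by 3.36% and 3.92% of the Mild and 4.17% and 15.4% of the Moderate Mag-Mog cells. Moderate replicate 2 thus had the highest such share. In number, these cells were 26 and 65 in the Mild and 11 and 32 in the Moderate libraries. They made up 6.33% and 6.91% of the Mild and 1.37% and 3.175% of the Moderate Ptprz1-Olig cells. As a description of the gates, which were set with genes of the same cell types, the OPC markers summed to 1336 and 1910 CPM (UMIs of a gene per 1000000 UMIs) in the Mild and 1303 and 1753 CPM in the Moderate Ptprz1-Olig cells. The oligodendrocyte markers summed there to 3407 and 4222 CPM in the Mild and 1487 and 2209 CPM in the Moderate libraries. The fibroblast markers summed to 7706 and 6474 CPM in the Mild and 6648 and 9756 CPM in the Moderate Collagen cells. A transcript that belongs to another cell type can still reach a gate's sum, through these cells and through others in the gate. Values for cells in only 1 gate are given beside some of the results they move, and not beside all.

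The 4 libraries held between 8637 and 12674 cells as deposited and between 6515 and 10860 after the filters, with 88313186 to 115384610 UMIs in the kept cells and a median of 9174 to 12349 UMIs per cell. Cells over the mitochondrial limit made up 3.06% and 4.72% of the deposited cells in the Mild libraries and 8.80% and 16.2% in the Moderate libraries. Between 22 and 34 cell barcodes were shared by each pair of the 4 libraries. Among the Tyrobp cells, those with at least 3 UMIs of the complement genes C1qa, C1qb and C1qc, which mark macrophages and microglia, were 51.3% and 83.9% of the Mild and 72.8% and 59.4% of the Moderate cells, so Mild replicate 1 held the lowest and Mild replicate 2 the highest share. The same share was 42.3% and 56.2% (Mild) against 48.6% and 43.75% (Moderate) of the Ptprz1-Olig cells. It was 46.05% and 59.8% against 47.7% and 44.2% of the Mag-Mog cells, and 55.6% and 66.3% against 57.3% and 57.9% of the Collagen cells. In each library these shares exceeded those that also passed the Tyrobp gate, so C1q UMIs also lay in cells outside that gate. The summed level of the neutrophil markers in the Tyrobp gate was 658 and 298 CPM in the Mild and 174 and 278 CPM in the Moderate libraries.

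The Mag-Mog gate held a smaller share of the cells after moderate contusion. It held 10.3% and 19.6% of the kept cells of the Mild libraries (95% Wilson intervals 9.64% to 11.02% and 18.8% to 20.5%) and 2.43% and 3.19% of the Moderate libraries (2.16% to 2.74% and 2.79% to 3.65%). Both Mild libraries lay above both Moderate libraries, and the means, 14.96% ± 6.58 (SD, n = 2) and 2.81% ± 0.539 (SD, n = 2), differed by 5.32-fold. The exact permutation test gave p = 0.333 (two-sided), which is the lowest that 2 libraries against 2 can reach. The Severe libraries held 1.90% and 3.54%, and the Sham libraries 18.5% and 1.78%, so the 2 Sham libraries lay further apart than the means of the Mild and Moderate groups. These intervals cover counting error only.

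The other gates overlapped between the groups. The Tyrobp gate held 80.2% and 70.3% of the Mild and 83.2% and 75.6% of the Moderate cells, the Ptprz1-Olig gate 5.48% and 11.1% against 7.40% and 15.5%, and the Collagen gate 5.59% and 2.07% against 7.23% and 4.30%. The differences of the means, Moderate minus Mild, were 4.11, 3.13 and 1.93 percentage points, and each gave p = 0.667 in the exact permutation test (two-sided). In both groups, replicate 1 had the higher Tyrobp and Collagen shares and replicate 2 the higher Ptprz1-Olig share, a spread larger than the difference between the groups.

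**Figure D1:**
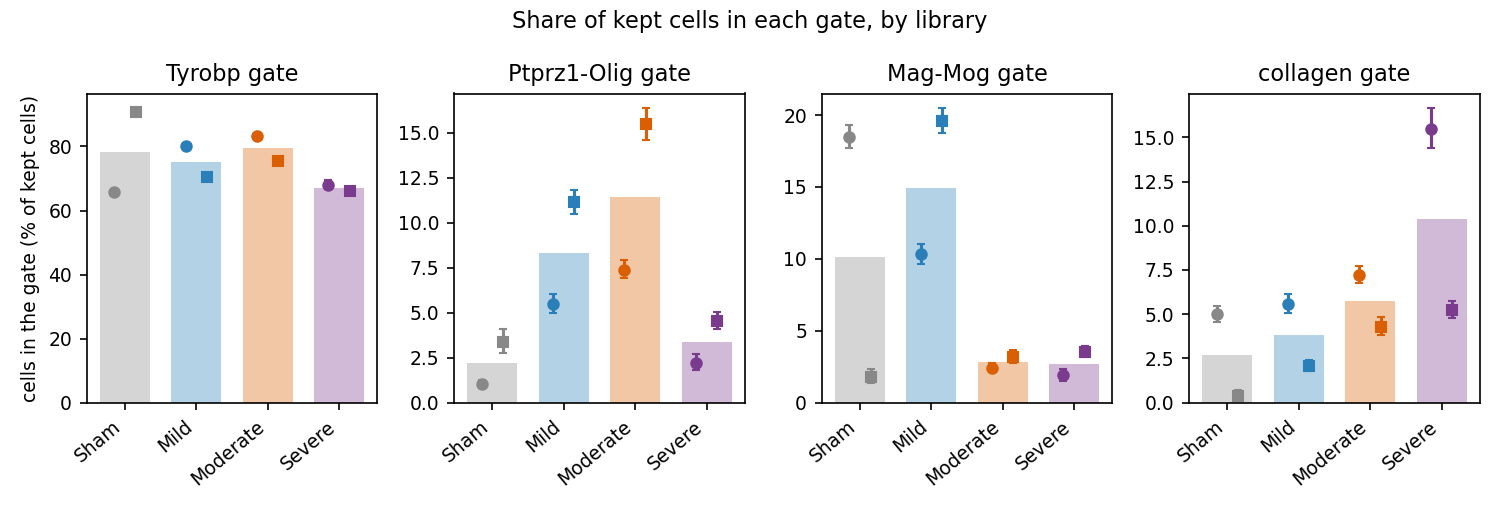
Share of the kept cells that passed each of the 4 gates, in percent, for every library of the Sham, Mild, Moderate and Severe groups, with 1 point per library, its 95% Wilson interval as an error bar and the group mean as a bar. The Mag-Mog share lies at 10.3% and 19.6% in the Mild and at 2.43% and 3.19% in the Moderate libraries, while the other gates overlap between these groups.

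Over all cells, the genes that rose with a mean of at least 50 CPM included chaperone genes, and the 5 largest falls of genes above that level that carry a gene name were mostly in genes that oligodendrocytes express. Levels are given as CPM scaled between the injured libraries by the trimmed mean of M values (TMM). Changes are log2 values of Moderate over Mild with their standard error (SE), and adjusted p-values come from edgeR's quasi-likelihood test with Benjamini-Hochberg adjustment. Of 15990 genes tested, 48 passed an adjusted p of 0.05 (0.3% of those tested), 14 higher (0.0876%) and 34 lower (0.213%). Of the 14 higher, 6 carried no gene name, as did 3 of the 34 lower. In sums over all cells, fewer cells of a type and less RNA per cell cannot be told apart.

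Hspa1b, which encodes an inducible Hsp70 chaperone, stood at 55.2 and 43.5 CPM in the Mild libraries and 456 and 654 CPM in the Moderate libraries. Both Moderate libraries lay above both Mild libraries, by 3.49 ± 0.29 (SE) on the log2 scale, an 11.3-fold rise (adjusted p = 0.0206). The rat genome holds a near-identical neighbour of this gene, so its UMIs may come from either copy. The Severe libraries stood at 772 and 671 CPM, and the Sham libraries at 2666 and 20.6 CPM without TMM scaling, so Sham replicate 1 exceeded every injured library and Sham replicate 2 was below them all.

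Hspb1, the small chaperone Hsp27, rose from 53.1 and 59.0 to 345 and 548 CPM (Mild, then Moderate, replicates 1 and 2; log2 change 2.99 ± 0.29, adjusted p = 0.0346). Hsph1, a co-chaperone of Hsp70 from the Hsp110 family, rose from 41.4 and 34.8 to 142 and 206 CPM (2.19 ± 0.24, adjusted p = 0.0379). Bag3, which couples Hsp70 to selective autophagy, rose from 32.4 and 28.9 to 123 and 94.4 CPM (1.83 ± 0.21, adjusted p = 0.0425). Zfand2a, a proteasome-binding protein induced by arsenite and heat, rose from 32.3 and 22.5 to 129.6 and 184 CPM (2.51 ± 0.31, adjusted p = 0.0446). In each of these 5 genes both Moderate libraries lay above both Mild libraries, as in 29% of all genes tested over all cells, while 27.6% lay below and 56.6% did not overlap in either direction. The Severe libraries stood at 246 and 309 CPM for Hspb1, 105 and 103 CPM for Hsph1, 47.3 and 49.0 CPM for Bag3 and 113 and 76.1 CPM for Zfand2a. Unlike Hspa1b, these genes were lower in both Severe than in both Moderate libraries, and so did not follow the drop height.

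Tf, which encodes transferrin, the iron carrier that oligodendrocytes make, stood at 3829 and 4095 CPM in the Mild libraries and 489 and 425 CPM in the Moderate libraries. It fell by 8.67-fold (-3.12 ± 0.31, adjusted p = 0.0346). Mal, a lipid-raft protein of compact myelin, fell from 158 and 331 to 32.3 and 27.3 CPM (-3.04 ± 0.37, adjusted p = 0.0446), and Ptgds, the prostaglandin D2 synthase of oligodendrocytes and meninges, fell from 483 and 617 to 91.5 and 66.4 CPM (-2.80 ± 0.31, adjusted p = 0.0379). Aplp1, an amyloid precursor-like protein, and Plekhb1, a membrane protein with a pleckstrin homology domain, fell by 6.95-fold and 6.47-fold, both at an adjusted p of 0.0464. The summed level of the 8 oligodendrocyte markers moved with them, at 5692 and 7777 CPM in the Mild and 1591 and 1953 CPM in the Moderate libraries, as did the share of Mag-Mog cells. In the Severe libraries Tf stood at 974 and 1479 CPM, Mal at 99.1 and 121 CPM and Ptgds at 207 and 316 CPM. Aplp1 stood there at 127 and 234 CPM and Plekhb1 at 27.2 and 48.3 CPM. Each of these named genes was higher in both Severe than in both Moderate libraries, and so did not follow the drop height.

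These calls rest on all of the Mild and Moderate libraries. Without Mild replicate 1, without Mild replicate 2 or without Moderate replicate 1 no gene passed edgeR's test (1701, 2040 and 2659 genes had an unadjusted p under 0.05), and without Moderate replicate 2 there were 2 calls. In these fits the single library left in a group is assumed to vary like the other groups. A fit of all 8 libraries, whose spread also holds that between the Sham libraries, called 0 genes (1366 at an unadjusted p under 0.05), and DESeq2 called 1319, among them all 48.

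Heat shock genes passed over all cells and in 2 of the gates. The promoters of Hspb1, Hsph1, Bag3 and Zfand2a, which rose over all cells, are shown here because Hsf1 binds repeats of the letters GAA and TTC. The windows run from 250 bases before to 50 bases after each gene's start in RefSeq (build GRCr8, not the Rnor_6.0 build of the count tables), and the capitals mark matches to GAANNTTC or TTCNNGAA, inverted GAA units in either order.
Hspb1, chr12:26432252-26432551, minus strand: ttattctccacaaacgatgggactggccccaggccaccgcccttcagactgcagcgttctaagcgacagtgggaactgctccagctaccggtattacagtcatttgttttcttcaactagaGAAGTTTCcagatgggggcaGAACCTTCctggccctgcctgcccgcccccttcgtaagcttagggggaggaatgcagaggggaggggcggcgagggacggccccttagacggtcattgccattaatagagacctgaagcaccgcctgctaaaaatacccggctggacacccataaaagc
Hsph1, chr12:10427118-10427417, plus strand: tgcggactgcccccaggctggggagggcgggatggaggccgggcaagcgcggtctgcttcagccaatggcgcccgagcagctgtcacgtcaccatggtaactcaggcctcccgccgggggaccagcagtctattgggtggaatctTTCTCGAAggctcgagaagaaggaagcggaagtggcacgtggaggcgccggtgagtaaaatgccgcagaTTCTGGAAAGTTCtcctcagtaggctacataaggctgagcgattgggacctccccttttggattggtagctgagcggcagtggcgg
Bag3, chr1:192533210-192533509, plus strand: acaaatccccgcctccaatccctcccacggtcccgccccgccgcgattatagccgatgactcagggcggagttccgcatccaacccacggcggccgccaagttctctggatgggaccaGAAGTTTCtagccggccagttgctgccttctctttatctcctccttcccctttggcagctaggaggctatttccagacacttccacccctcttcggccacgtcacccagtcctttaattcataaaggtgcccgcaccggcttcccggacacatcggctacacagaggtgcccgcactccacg
Zfand2a, chr12:20275200-20275499, plus strand: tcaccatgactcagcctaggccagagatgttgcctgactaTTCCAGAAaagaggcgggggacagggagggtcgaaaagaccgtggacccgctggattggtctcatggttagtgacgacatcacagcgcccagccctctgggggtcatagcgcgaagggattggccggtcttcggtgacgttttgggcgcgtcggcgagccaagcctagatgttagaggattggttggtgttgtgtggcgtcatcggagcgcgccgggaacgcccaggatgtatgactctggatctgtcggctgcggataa
Hspb1 held 2 matches to GAANNTTC, Bag3 held 1, Zfand2a held 1 match to TTCNNGAA, and Hsph1 held 1 of the former and 2 of the latter, a pair of which overlapped. Each motif is its own reverse complement, so the search covered both strands. Of all 33469 promoter windows of this length in the table, 8.59% held GAANNTTC, 8.77% held TTCNNGAA and 15.9% held either. Of the 14 heat shock genes tested, 11 were in the table and 8 of these held either motif, while the windows of Hsp90ab1, Hspa4 and Hspa5 held neither. Hspa1b is not in the promoter table. A match is a run of letters and was not tested as a binding site. The counts describe reference sequence for a list chosen as heat shock genes, and say nothing on Moderate against Mild.

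In the Tyrobp gate, the macrophages and microglia with the other myeloid cells, 3 of the 14 heat shock genes were among the 5 genes called higher (0.0333% of 15028 tested), and 9 of the 14 had both Moderate libraries above both Mild libraries (29.1% of all genes tested there). None of the 14 had both below. The median log2 change of the 14 was 1.44, beside 0.02 over all genes tested. Hspa1b rose from 35.6 and 26.9 to 443 and 517 CPM (log2 change 3.94 ± 0.24, 15.4-fold, adjusted p = 0.00652). Hsph1 rose from 36.4 and 30.3 to 136 and 185 CPM (2.27 ± 0.23, adjusted p = 0.0396) and Bag3 rose from 25.4 and 23.3 to 126 and 100.1 CPM (2.22 ± 0.21, adjusted p = 0.0270). The next by p, Dnajb1, the Hsp40 that delivers clients to Hsp70, stood at 59.9 and 48.1 CPM in the Mild libraries and 220.4 and 166 CPM in the Moderate libraries, with no overlap, but did not pass (adjusted p = 0.0851). Hspb1, picked here after its values were seen, stood at 31.5 and 33.4 CPM in the Mild libraries and 319 and 496 CPM in the Moderate libraries with a larger error (3.65 ± 0.56) and did not pass in this gate either (adjusted p = 0.0997).

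The rise of Hspa1b was seen in the share of cells as well as in the summed level. With every Tyrobp cell thinned to 1000 UMIs, 2.33% and 2.17% of the Mild and 28.6% and 27.0% of the Moderate cells held an Hspa1b UMI, and without thinning 11.1% and 10.5% against 62.1% and 66.2%. In the Ptprz1-Olig gate the thinned shares were 8.76% and 5.42% against 33.2% and 59.1%. In the Mag-Mog gate they were 5.69% and 4.22% against 9.09% and 17.3%, and in the Collagen gate 18.6% and 22.9% against 28.5% and 63.6%. In each gate both Moderate shares were above both Mild shares. Any cell type can induce Hspa1b, so no gate gives the level of free RNA in the droplets, and its part in the shares was not tested.

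In the Ptprz1-Olig gate, 8 of the 14 heat shock genes rose, beside 1.21% of 12628 genes tested that were called higher. Hspa1b rose from 109 and 67.4 to 554 and 1148 CPM (3.27 ± 0.39, adjusted p = 0.0126), Hsph1 from 66.1 and 60.7 to 170.0 and 328 CPM (1.98 ± 0.29, adjusted p = 0.0180) and Hspb1 from 177 and 238 to 464 and 765 CPM (1.57 ± 0.27, adjusted p = 0.0228). Moderate replicate 2 was the highest of the 4 libraries in all 3 genes. The other 5 were Bag3, the Hsp40 co-chaperones Dnajb4, Dnajb1 and Dnaja1, and Hsp90aa1, the inducible Hsp90, with log2 changes of 1.38, 1.76, 1.09, 0.94 and 1.08. The median of the 14 was 1.01, beside 0.01 over all genes. In the Severe libraries Bag3 stood at 33.8 and 26.9 CPM, Dnajb4 at 24.9 and 18.1 CPM and Hsp90aa1 at 339 and 243 CPM. These genes were lower in both Severe than in both Moderate libraries, while Dnaja1, at 622 and 694 CPM in the Severe libraries, overlapped.

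In the Mag-Mog and Collagen gates no heat shock gene passed the test. In Mag-Mog cells, 9 of the 14 had both Moderate libraries higher (31.5% of the 11138 genes tested) and 2 had both lower (31.4%), with a median of 0.45. Hsph1 stood there at 45.2 and 30.6 CPM in the Mild libraries and 81.3 and 91.4 CPM in the Moderate libraries (adjusted p = 0.0697), and Hsp90aa1 at 212 and 175 CPM (Mild) against 372 and 449.9 CPM (Moderate) (adjusted p = 0.0794). In Collagen cells, 13 of the 14 had both Moderate libraries higher (29.2% of 12632) and none lower, with a median of 0.89. Hsp90aa1 stood at 235 and 211 CPM in the Mild libraries and 418 and 689 CPM in the Moderate libraries (adjusted p = 0.113) and Hsph1 at 50.6 and 53.7 CPM (Mild) against 119 and 285 CPM (Moderate) (adjusted p = 0.113). The median of the list, less the median of all genes, kept its sign in every gate under every alternative run, from 1.15 to 1.64 in Tyrobp cells, 0.78 to 1.03 in Ptprz1-Olig cells, 0.25 to 0.56 in Mag-Mog cells and 0.38 to 1.24 in Collagen cells.

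Whether the heat shock changes differed between gates was tested in a fit of all 4 gates, and no member of the list passed in any of the 6 pairs of gates. The nearest was Bag3, whose log2 change was 1.58 larger in Tyrobp than in Mag-Mog cells (adjusted p = 0.061 from edgeR's quasi-likelihood test). For Hspa1b it was 2.57 larger (adjusted p = 0.171 from the same test). Cells that passed both gates were counted on both sides, which can bring the changes closer together, so this lack of calls does not show equal changes. With cells in only 1 gate, 133 of 13729 genes passed between Tyrobp and Mag-Mog, 110 of them with the higher change in Tyrobp cells.

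**Figure D2:**
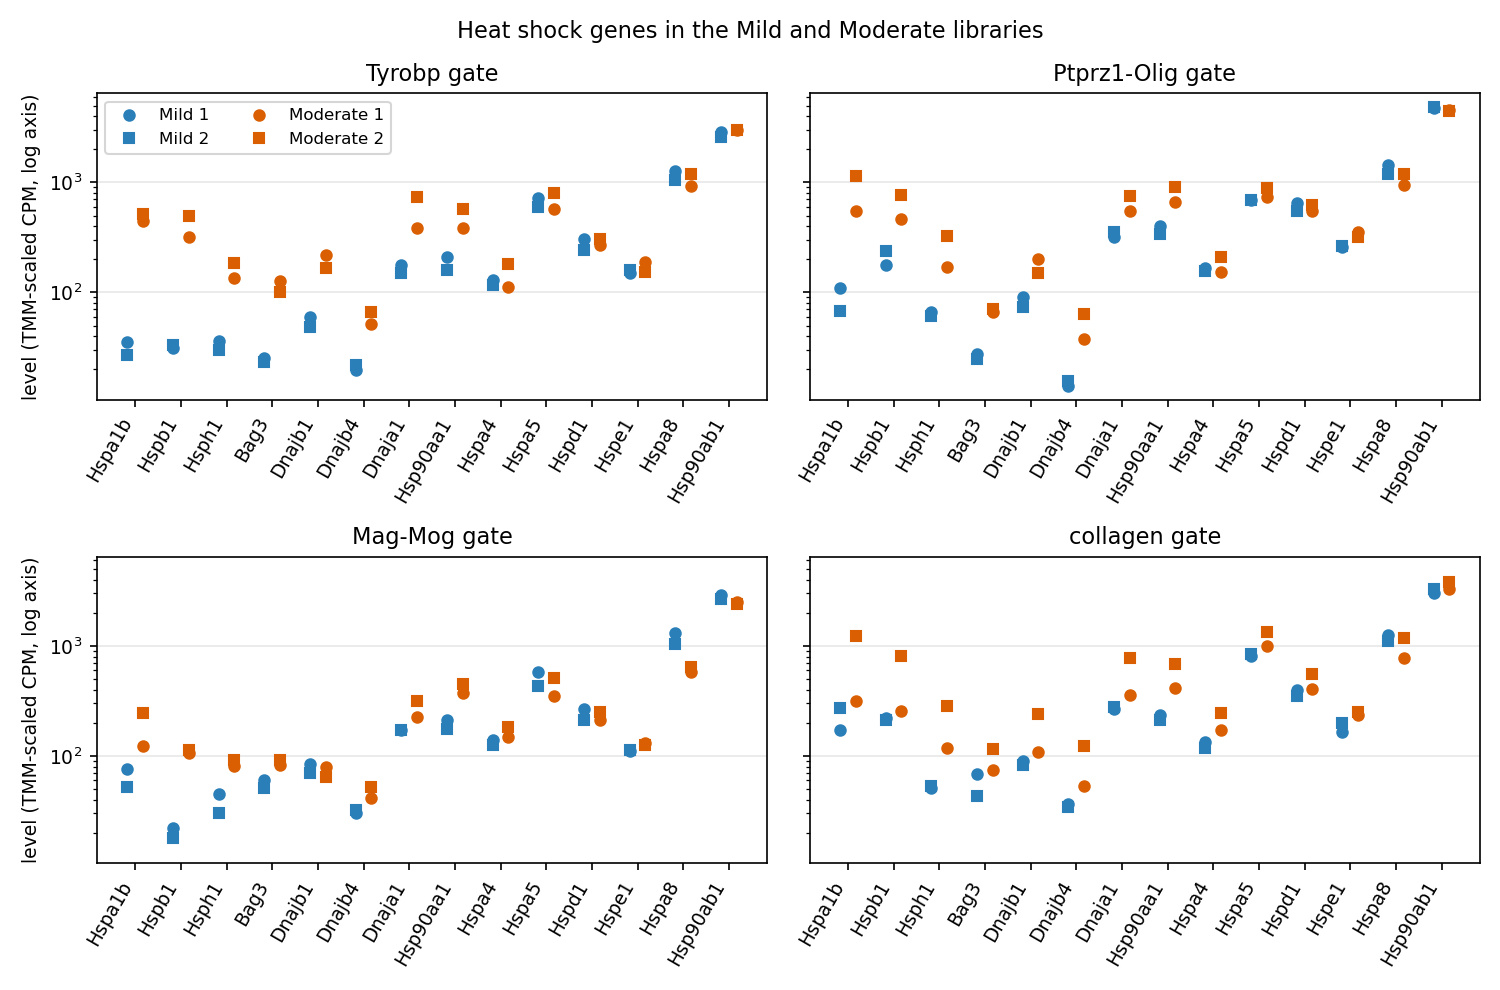
Level of the 14 tested heat shock genes in every Mild and Moderate library, in TMM-scaled CPM on a log axis, with 1 point per library and 1 panel per gate. Hspa1b lies at 35.6 and 26.9 CPM in the Mild and at 443 and 517 CPM in the Moderate libraries of the Tyrobp gate.

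In the Tyrobp gate 7 of 15028 genes passed the test (0.0466%), 5 higher and 2 lower (0.0133%). Besides the 3 chaperone genes, Cald1 rose from 33.0 and 31.5 to 106 and 108 CPM (1.73 ± 0.18, adjusted p = 0.0478). Cald1 encodes caldesmon, which binds actin and myosin and restrains contraction. The Severe libraries, at 20.8 and 23.2 CPM, were below both Mild libraries, so Cald1 did not follow the drop height. One of the higher and 1 of the lower features carried no gene name, and the remaining one that fell was Tf, from 1506 and 1550 to 318 and 269 CPM (-2.38 ± 0.21, adjusted p = 0.0255). The Severe libraries, at 545 and 482 CPM of Tf, lay above both Moderate libraries, so Tf did not follow the drop height either.

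The fall of Tf in Tyrobp cells was smaller in cells that passed only that gate, -0.94 (adjusted p = 0.158), and when the gate's threshold was doubled it was -1.76 (adjusted p = 0.0716). The 8 oligodendrocyte markers summed to 2420 and 3073 CPM in the Mild and 944 and 894 CPM in the Moderate Tyrobp cells. Tyrobp cells that also passed the Mag-Mog gate were a larger share in both Mild than in both Moderate libraries, as given above. The part of these cells in the fall was not tested. The thinned share of Tyrobp cells with a Tf UMI was 37.4% and 32.9% against 19.8% and 18.6%, beside 95.1% and 92.6% against 91.3% and 81.2% of the Mag-Mog cells.

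Calls in this gate depended on single libraries. Without Mild replicate 1 there were 2 calls, 2 of them among the 7, without Mild replicate 2 there were 0 (1745 genes at an unadjusted p under 0.05), without Moderate replicate 1 there were 8, 3 of them among the 7, and without Moderate replicate 2 there was 1. The change of Hspa1b stayed between 3.77 and 4.15 over the 6 left-out libraries and passed in 5 of them, with a highest adjusted p of 0.0619.

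Apart from heat shock, no list in the Tyrobp gate had a member that passed, so the following values are descriptions. Genes of monocyte-derived macrophages had both Moderate libraries higher in 9 of 14 and both lower in none, with a median of 0.47. For all genes tested in this gate these shares were 29.1% and 28.8%. Among them Thbs1, which encodes the matrix protein thrombospondin 1, stood at 7.51 and 9.11 CPM in the Mild libraries and 19.4 and 38.0 CPM in the Moderate libraries (adjusted p = 0.123). F13a1, the coagulation factor XIII subunit made by monocytes, stood at 19.6 and 15.8 CPM (Mild) against 50.9 and 60.2 CPM (Moderate), and Ahnak, a large scaffold protein, at 108 and 83.6 CPM (Mild) against 167 and 284 CPM (Moderate). The groups did not overlap in these 3 genes, as in 57.9% of all genes tested in this gate.

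Immediate early genes, the first to be transcribed after a stimulus, lay higher in 12 of 22 and lower in 2, with a median of 0.56. Among all genes tested in this gate, 29.1% lay higher and 28.8% lower. Ier5, a regulator of Hsf1, stood at 43.6 and 41.7 CPM in the Mild libraries and 111 and 148 CPM in the Moderate libraries (1.60 ± 0.30, adjusted p = 0.118). Jund, a subunit of the AP-1 factor, stood at 322 and 197 CPM (Mild) against 635 and 887 CPM (Moderate), and Atf3, a stress-induced repressor, at 689 and 556 CPM (Mild) against 1417 and 1578 CPM (Moderate). The groups did not overlap in these 3 genes.

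Genes of lysosomes and autophagy, which break down what macrophages take up, went the other way. Of 22, 15 had both Moderate libraries lower and 1 had both higher, with a median of -0.42, and none passed. Among all genes tested in this gate, 28.8% lay lower and 29.1% higher. Psap, the precursor of the saposins that help degrade sphingolipids, stood at 3861 and 3758 CPM in the Mild libraries and 2556 and 2182 CPM in the Moderate libraries (-0.69 ± 0.23, adjusted p = 0.197). Lamp1, a lysosomal membrane protein, stood at 927 and 1033 CPM (Mild) against 642 and 650.0 CPM (Moderate), and Tfeb, the factor that drives lysosomal genes, at 70.2 and 62.9 CPM (Mild) against 47.9 and 37.4 CPM (Moderate). Atp6v0d2, a subunit of the proton pump, had the widest gap, 17.7 and 25.5 CPM (Mild) against 7.82 and 2.50 CPM (Moderate), and Gabarapl2, an autophagosome protein, stood at 191 and 178 CPM (Mild) against 129.7 and 117 CPM (Moderate).

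Sterol synthesis, the cell cycle and oxidative phosphorylation leaned the same way, beside 28.8% of all genes tested in this gate that lay lower and 29.1% higher. Cholesterol synthesis genes lay lower in 13 of 20 and higher in 3, with a median of -0.35. Fdps, which makes farnesyl diphosphate, stood at 131 and 115 CPM in the Mild libraries and 65.9 and 59.2 CPM in the Moderate libraries (-0.98 ± 0.19, adjusted p = 0.123), and the sterol enzyme Sc5d at 25.4 and 25.2 CPM (Mild) against 14.9 and 10.4 CPM (Moderate), while Msmo1 had a log2 value of -0.95, all short of the threshold. Relative to all genes the median of this list was -0.37, and in cells of only 1 gate it was 0.03. Cell cycle genes lay lower in 12 of 21 and higher in 2 (median -0.34), with log2 values of -0.71 for the thymidylate synthase Tyms and -0.55 for the replication helicase subunit Mcm6. Oxidative phosphorylation genes lay lower in 11 of 22 and higher in none (median -0.20), among them Cox5a of cytochrome c oxidase at 733 and 709 CPM (Mild) against 451 and 361 CPM (Moderate) and Ndufv1 of complex I at 178 and 180.1 CPM (Mild) against 118 and 89.1 CPM (Moderate).

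Other immune lists turned on single libraries. The MHC class II genes, which present peptides to T cells, had a median of -0.68, with Cd74, the chaperone of these molecules, at 1354 and 511 CPM in the Mild libraries and 409 and 393 CPM in the Moderate libraries. Mild replicate 1 was far above the other 3 libraries, and without it the sign of the list's median turned. Inflammatory cytokines and chemokines had a median of 0.75, with 6 of 19 higher and 1 lower (29.1% and 28.8% of all genes tested in this gate). The T cell chemoattractant Cxcl10 stood at 18.8 and 14.4 CPM (Mild) against 46.5 and 41.8 CPM (Moderate), the neutrophil chemoattractant Cxcl3 at 16.3 and 9.53 CPM (Mild) against 19.7 and 94.0 CPM (Moderate) and Tnf at 0.348 and 0.417 CPM (Mild) against 0.633 and 1.15 CPM (Moderate). Without Moderate replicate 2 this median changed sign, as did that of the microglia identity genes, -0.20 with 2 of 18 higher and 4 lower, where Bin1 and Selplg had log2 values of -0.71 and 1.24 (not called).

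The remaining lists of the Tyrobp gate had medians from -0.41 (complement) to 0.39 (TGF-beta pathway). Complement genes lay higher in 6 of 15 and lower in 6, and TGF-beta genes higher in 9 of 19 and lower in 3. For all genes tested in this gate the shares were 29.1% higher and 28.8% lower. Growth factors and IGF binding proteins lay higher in 8 of 20 and lower in 0 (median 0.31), border macrophage genes higher in 3 of 9 and lower in 0 (0.22), and metalloproteinases with their inhibitors higher in 3 of 14 and lower in 1 (0.18). Glycolysis and hypoxia (0.14), lipid handling (0.14), antioxidant and iron genes (0.10), the type I interferon response (0.02) and the integrated stress response (-0.10) stood near the median of all genes. Among lipid genes, the cholesterol exporter Abca1 had a log2 value of 1.28 and the esterifying enzyme Soat1 of 0.98, and in the stress response the factor Ddit3 stood at 1.64 and the asparagine synthetase Asns at -1.40, none of which passed.

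The 8 immune-related autophagy factors that the study chose on these samples were read in the Tyrobp gate, and none passed the test. Ctsb, the lysosomal protease cathepsin B, stood at 6056 and 6819 CPM in the Mild libraries and 4900 and 4324 CPM in the Moderate libraries (-0.48 ± 0.24, adjusted p = 0.316), with both Moderate libraries lower. Vegfa, the vascular growth factor, stood at 31.1 and 16.6 CPM (Mild) against 38.6 and 63.0 CPM (Moderate) (1.09, adjusted p = 0.356), with both higher. The chemokine receptor Cxcr4 and the double-stranded RNA sensor Eif2ak2 had log2 values of 0.38 and 0.29, and Birc5, the mitotic protein survivin, -0.43. Hspa8, the constitutive Hsp70, Hspa5, the chaperone of the endoplasmic reticulum, and the deacetylase Hdac1 stood at -0.11, 0.05 and -0.04, values whose sign changed when libraries were left out. In all, 3 of the 8 lay higher in both Moderate libraries, 2 lower and 3 overlapped. Of all genes tested in this gate, 29.1% lay higher and 28.8% lower, so the 8 did not stand out from all genes in this count.

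The Ptprz1-Olig gate, the OPC-type cells, had 259 calls of 12628 genes (2.05%), 153 higher and 106 lower (0.839%). Of the 153, 34 carried no gene name. Besides the chaperones, Rnd3, a small GTPase that loosens actin fibres, rose from 54.1 and 69.5 to 134 and 223 CPM (1.53 ± 0.30, adjusted p = 0.0406), and Clk1, a kinase of splicing factors, rose from 38.3 and 40.6 to 79.0 and 148 CPM (1.52 ± 0.27, adjusted p = 0.0283). In both genes Moderate replicate 2 was the highest library and the groups did not overlap. The Severe libraries stood at 71.7 and 115 CPM for Rnd3, below both Moderate libraries, and at 110 and 117 CPM for Clk1, between them.

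Among immediate early genes, 3 of 21 rose in this gate, and 13 lay higher. For all genes tested in this gate, 1.21% were called higher and 28.6% lay higher. Atf3 rose from 438 and 495 to 954 and 1077 CPM (1.12 ± 0.25), Ier5 from 36.4 and 35.3 to 74.8 and 101 CPM (1.30 ± 0.21) and Klf2, a zinc finger factor, from 2.45 and 1.67 to 7.05 and 15.6 CPM (2.49 ± 0.45). In the integrated stress response, 2 of 14 rose, Ddit3, the factor CHOP, from 40.1 and 39.6 to 88.2 and 99.1 CPM, and Sesn2, an inhibitor of mTORC1 signalling, from 8.57 and 9.80 to 24.0 and 23.0 CPM. The median of the immediate early list was 0.65 and that of the stress response 0.14, beside 0.01 over all genes tested. In the Severe libraries Atf3 stood at 336 and 564 CPM, Ier5 at 32.6 and 37.4 CPM and Klf2 at 0.592 and 1.40 CPM. Ddit3 stood there at 52.7 and 72.0 CPM and Sesn2 at 4.74 and 7.41 CPM. Each of these named genes was lower in both Severe than in both Moderate libraries, and so did not follow the drop height. The Severe libraries held only 88 and 368 cells of this gate, so their low values, as for Klf2, rest on few UMIs.

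A single member rose in each of 3 further lists, beside 1.21% of all genes tested in this gate that were called higher. Vegfa rose from 22.8 and 30.7 to 55.5 and 78.2 CPM (1.32 ± 0.24, adjusted p = 0.0251), counted in both the glycolysis and hypoxia list and the growth factors, and Tfrc, the transferrin receptor through which cells take up iron, rose from 10.9 and 8.97 to 31.5 and 36.1 CPM (1.77 ± 0.23, adjusted p = 0.00878), from the antioxidant and iron list. Sox11, a transcription factor of immature neural cells, rose from 9.67 and 11.2 to 33.8 and 51.9 CPM (2.03 ± 0.27, adjusted p = 0.00977), and Cd44, the hyaluronan receptor, from 96.3 and 84.8 to 151 and 244 CPM (1.13 ± 0.24, adjusted p = 0.0410), the 2 called of 19 glial progenitor growth genes. The Severe libraries stood at 40.9 and 43.0 CPM for Vegfa, 17.8 and 16.9 CPM for Tfrc and 25.5 and 19.7 CPM for Sox11. These values lay below both Moderate libraries, while Cd44, at 177 and 151.3 CPM in the Severe libraries, overlapped.

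OPC identity genes leaned lower, with a median of -0.42 and 3 of 19 that fell (0.839% of all genes were called lower). Both Moderate libraries lay lower in 8 of the 19 (27.9% of all genes) and higher in 2 (28.6%). C1ql1, a secreted C1q-like protein of OPCs, stood at 547 and 728 CPM in the Mild libraries and 237 and 269 CPM in the Moderate libraries and fell by 2.52-fold (-1.33 ± 0.21, adjusted p = 0.0187). Matn4, a matrix protein of the matrilin family, fell from 14.4 and 19.3 to 5.66 and 3.05 CPM (-1.99 ± 0.34, adjusted p = 0.0233), and Ednrb, the endothelin receptor B, from 55.9 and 68.3 to 32.7 and 27.4 CPM (-1.05 ± 0.21, adjusted p = 0.0382). The groups did not overlap in these 3 genes, which also passed in cells of only 1 gate, with doubled gate thresholds and without called doublets. Ednrb did not pass when any 1 of the 4 libraries was left out, C1ql1 did not without Mild replicate 2, and Matn4 did not without Mild replicate 2 or Moderate replicate 2. Pdgfra, the growth factor receptor that defines OPCs and was picked here after its values were seen, stood at 77.5 and 109.7 CPM (Mild) against 105 and 133 CPM (Moderate) and overlapped, so the whole list did not fall. In the Severe libraries C1ql1 stood at 365 and 413 CPM, above both Moderate libraries. Matn4, at 3.55 and 2.68 CPM, and Ednrb, at 26.7 and 33.6 CPM, overlapped there with the Moderate libraries.

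The 5 largest falls in this gate among genes with a mean of at least 50 CPM were in genes that mature oligodendrocytes express. Tf fell from 930.3 and 1035 to 147 and 212 CPM (-2.45 ± 0.29, adjusted p = 0.00735), Ptgds from 202 and 137 to 23.1 and 39.9 CPM (-2.42, adjusted p = 0.00878), and Klk6, a protease of oligodendrocytes, from 183 and 188 to 20.9 and 53.9 CPM (-2.30, adjusted p = 0.0425). Gjb1, the gap junction protein connexin 32, fell from 115 and 81.5 to 21.7 and 28.1 CPM (-1.98, adjusted p = 0.00714) and Mag from 154 and 206 to 32.4 and 64.2 CPM (-1.89, adjusted p = 0.0271). The 8 oligodendrocyte markers summed to 3407 and 4222 CPM in the Mild and 1487 and 2209 CPM in the Moderate cells of this gate. In cells of only 1 gate Tf still passed, at -1.43, although with doubled thresholds it did not (-2.96, adjusted p = 0.257), while Gjb1 (-0.94, adjusted p = 0.0595) and Mag (-1.40, adjusted p = 0.0574) did not, and without called doublets Ptgds stood at -1.40 (adjusted p = 0.301). What part these mixed cells had in the falls was not tested. Klk6 passed under fewer of the alternative settings than the other genes named here, with log2 values from -3.15 to -1.77 over all of them.

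The other lists of the Ptprz1-Olig gate had no call. For all genes tested in this gate, 28.6% lay higher and 27.9% lower. Cholesterol synthesis lay higher in 3 and lower in 8 of 20 (median -0.23), with Fdps and Sqle at -0.80 and -0.72, both short of the threshold. Oxidative phosphorylation lay higher in 2 and lower in 9 of 22 (-0.05), the cell cycle higher in 5 and lower in 3 of 21 (-0.10), and the type I interferon response higher in 4 and lower in 1 of 19 (-0.03). Of the 259 calls, 44 were among the 53 called without Mild replicate 1, 14 among the 16 without Mild replicate 2, 141 among the 201 without Moderate replicate 1 and 50 among the 66 without Moderate replicate 2.

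**Figure D3:**
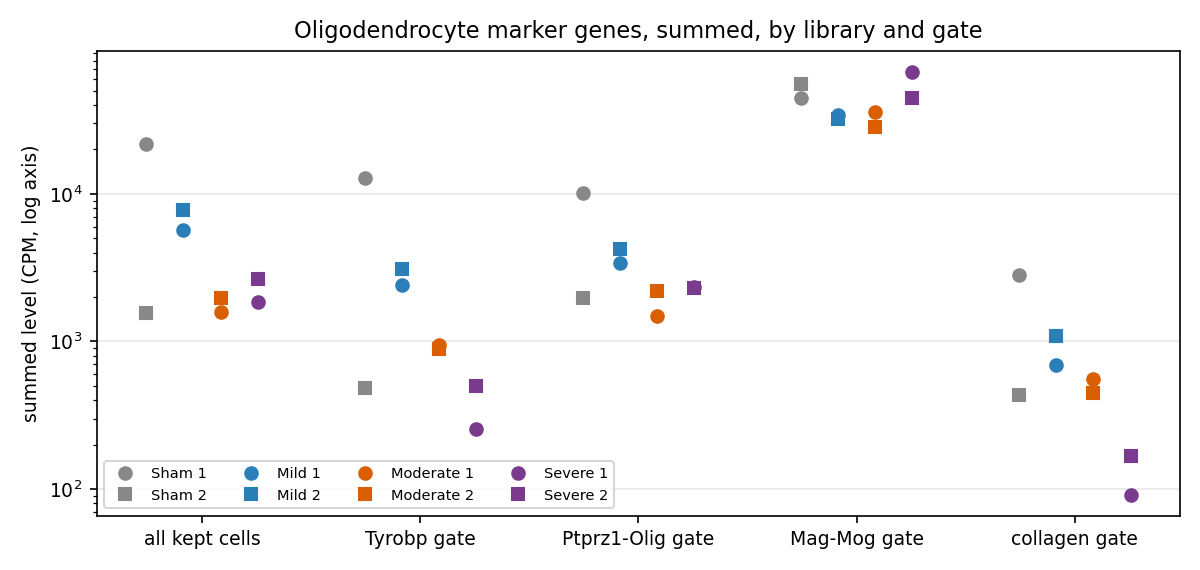
Summed level of the 8 oligodendrocyte marker genes, in CPM on a log axis, in every Sham, Mild, Moderate and Severe library over all cells and in each gate, with 1 point per library and no TMM scaling. The sum is 5692 and 7777 CPM in the Mild against 1591 and 1953 CPM in the Moderate libraries over all cells, and overlaps between the groups in Mag-Mog cells, at 34372 and 32050 CPM against 35650 and 28183 CPM.

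Within the Mag-Mog gate, the summed level of the oligodendrocyte markers overlapped between the groups, at 34372 and 32050 CPM in the Mild and 35650 and 28183 CPM in the Moderate libraries. This sum has no TMM scaling, and the gate itself selects cells by myelin genes. Single markers could still lie apart, as did Cnp, which is given below. The gate held 773 and 1658 cells in the Mild and 264 and 208 in the Moderate libraries. Of 11138 genes, 13 passed (0.117%), 5 higher (0.0449%), 4 of which carried no gene name, and 8 lower (0.0718%). Scaled by library size alone, which shifts the median log2 change of all genes in this gate from 0.01 to 0.21, 310 genes passed, 265 higher and 45 lower.

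Gpx2, a glutathione peroxidase that reduces peroxides, stood at 474 and 288 CPM in the Mild libraries and 59.1 and 76.3 CPM in the Moderate libraries and fell by 5.62-fold (-2.49 ± 0.28, adjusted p = 0.0344). Sh3glb2, an endophilin-like membrane protein, fell from 440.3 and 416 to 153 and 147 CPM (-1.51 ± 0.19, adjusted p = 0.0389), and Nf1x fell from 147 and 139 to 42.9 and 39.8 CPM (-1.79 ± 0.24, adjusted p = 0.0483). The 2 libraries of a group lay close together in Nf1x and Sh3glb2, and the groups did not overlap in any of the 3 genes. In cells of only 1 gate the fall of Gpx2 was -4.02. Peg3, Trip12 and Reep3 had the lowest p among the named genes that lay higher, with Peg3, an imprinted zinc finger gene, at 57.7 and 63.9 CPM (Mild) against 133 and 155 CPM (Moderate), but none passed, each with an adjusted p of 0.0645.

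The myelin genes had no call. Of 18, 10 had both Moderate libraries lower and 4 both higher, with a median of -0.17 beside 0.01 over all genes. Among all genes tested in this gate, 31.4% lay lower and 31.5% higher. Nkx6-2, a transcription factor of mature oligodendrocytes, stood at 669 and 648 CPM in the Mild libraries and 411 and 286 CPM in the Moderate libraries (-0.92, adjusted p = 0.0746), and Cnp, an enzyme of non-compact myelin, at 6681 and 5595 CPM (Mild) against 3793 and 2973 CPM (Moderate). Hapln2, a link protein of the nodal matrix, had a log2 value of -0.73, and Myrf, the factor that switches on myelin genes, lay higher, at 84.0 and 107 CPM (Mild) against 159 and 185 CPM (Moderate) (0.85, adjusted p = 0.141).

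A pair of metabolic lists leaned lower in these cells with no member that passed, beside 31.4% of all genes tested here that lay lower. Oxidative phosphorylation lay lower in 14 of 21 and higher in none, with a median of -0.25 and Cox5a at 1042 and 1144 CPM in the Mild libraries and 482 and 394 CPM in the Moderate libraries (-1.32 ± 0.22, adjusted p = 0.0645). Ndufv1 stood at 209 and 192 CPM (Mild) against 107 and 93.0 CPM (Moderate). Cholesterol synthesis, which supplies the lipid of myelin, lay lower in 9 of 20 and higher in 4 (median -0.34), with Fdps at 678 and 559 CPM (Mild) against 268 and 162 CPM (Moderate) (-1.53, adjusted p = 0.0645) and the squalene synthase Fdft1 at -1.20 on the log2 scale.

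Genes that mark stressed oligodendrocytes after injury lay lower in 5 of 13 and higher in 0 (median -0.41). Of all genes tested in this gate, 31.4% lay lower and 31.5% higher, so the count of lower genes was near that share. Klk6 stood at 3852 and 3245 CPM in the Mild libraries and 1884 and 1712 CPM in the Moderate libraries. Ptgds stood at 2442 and 2441 CPM (Mild) against 1566 and 1027 CPM (Moderate). Immediate early genes split, with 6 of 21 higher and 6 lower (0.02), where Ier2 stood at 457 and 471 CPM (Mild) against 128 and 106 CPM (Moderate) and Fos at 2331 and 3058 CPM (Mild) against 808 and 1010 CPM (Moderate), both lower, and Ier5 at 13.5 and 11.1 CPM (Mild) against 31.8 and 33.6 CPM (Moderate). Medians of the remaining lists were -0.47 for the type I interferon response, -0.46 for the integrated stress response, -0.28 for glycolysis and hypoxia and -0.11 for antioxidant and iron genes. The fibroblast markers summed to 145 and 55.2 CPM in the Mild and 392 and 495 CPM in the Moderate Mag-Mog cells, and called doublets were 13.2% and 11.2% against 22.0% and 17.3% of the cells. The median share of mitochondrial UMIs was 5.71% and 5.22% in the Mild and 7.01% and 7.15% in the Moderate cells of this gate. The part of these in the values of the gate was not tested.

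**Figure D4:**
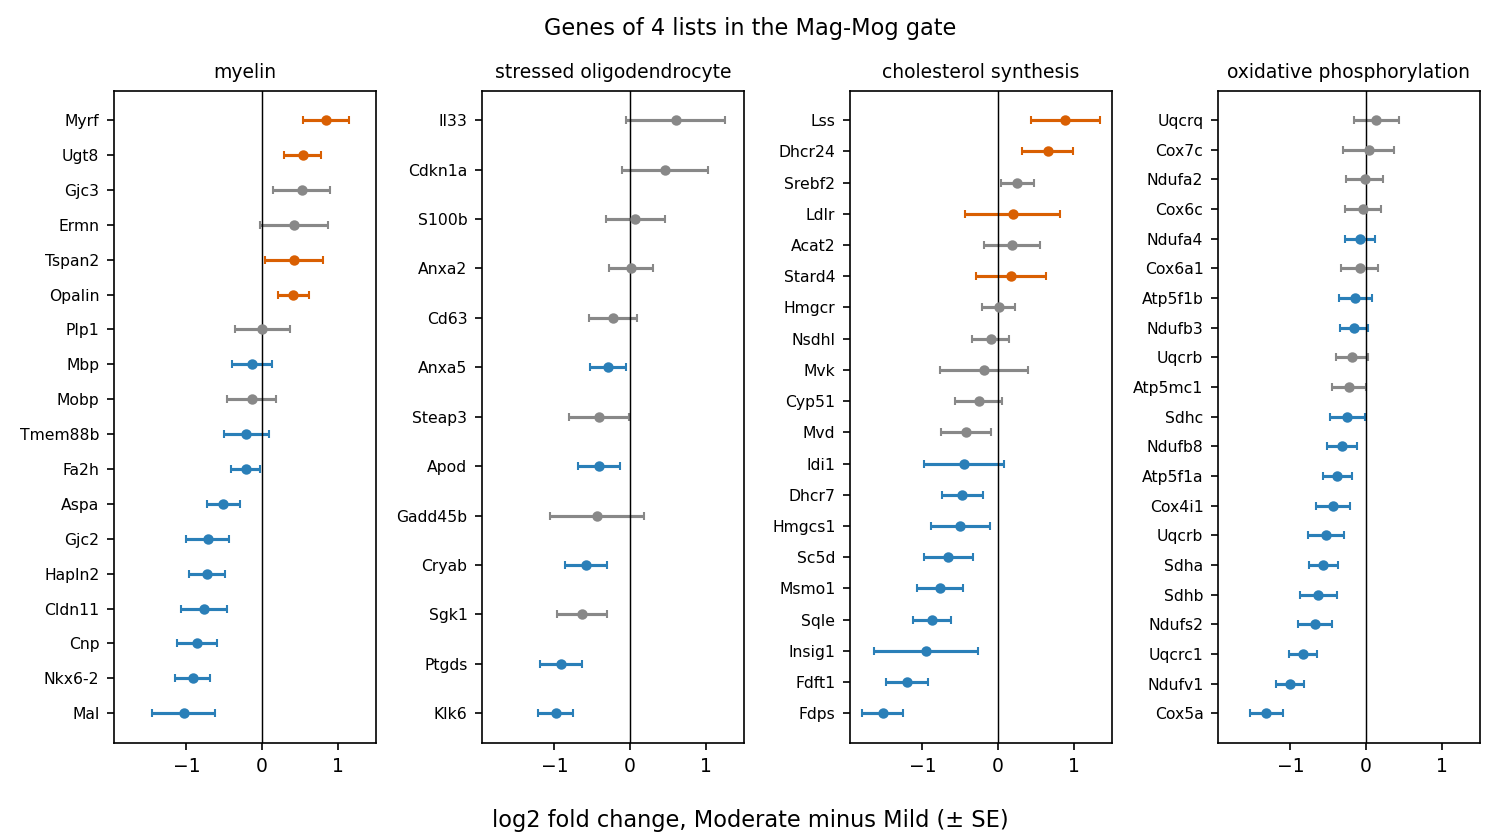
Log2 change, Moderate over Mild, of each tested member of 4 gene lists in the Mag-Mog gate, with 1 point per gene, its SE as an error bar, and orange or blue where both Moderate libraries lie above or below both Mild libraries (grey where they overlap). In oxidative phosphorylation 14 of 21 genes are blue and none is orange.

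Without Mild replicate 1 or Mild replicate 2 no gene of this gate passed in edgeR (1162 and 1805 genes at an unadjusted p under 0.05), without Moderate replicate 1 there were 3 calls and without Moderate replicate 2 there were 2. In cells of only 1 gate the count was 589 and with doubled thresholds 177. DESeq2 called 795 genes, so the count of changed genes in Mag-Mog cells is poorly fixed by these libraries.

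In the Collagen gate none of 12632 genes passed edgeR's quasi-likelihood test after Benjamini-Hochberg adjustment (0% of those tested), while 2743 had an unadjusted p under 0.05 and DESeq2 called 666. The lowest adjusted p was 0.111. By the lowest p, Tagln, the actin-binding protein transgelin of contractile cells, stood at 144 and 105 CPM in the Mild libraries and 533 and 439 CPM in the Moderate libraries (1.96 ± 0.25, adjusted p = 0.111). Caprin1, an RNA-binding protein, and Supt6h, a histone chaperone, stood at 42.3 and 44.6 CPM (Mild) against 84.8 and 94.2 CPM (Moderate) and 36.0 and 41.7 CPM (Mild) against 79.8 and 83.5 CPM (Moderate). Glul, the glutamine synthetase, lay lower at 2046 and 1959 CPM (Mild) against 689 and 542 CPM (Moderate) (-1.70 ± 0.20), as did the protease inhibitor Serpinb1a at 150.1 and 124 CPM (Mild) against 36.1 and 25.6 CPM (Moderate). The groups were apart in each of these genes, as in 56% of all genes tested in this gate.

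Scar matrix genes were mixed. Of 14 collagen genes outside the gate, 5 lay higher in both Moderate libraries and 1 lower, with a median of 0.48. For all genes tested in this gate these shares were 29.2% and 26.8%. Col5a1, a regulator of collagen fibre width, stood at 13.8 and 19.7 CPM in the Mild libraries and 53.6 and 38.7 CPM in the Moderate libraries (1.49, adjusted p = 0.112) and Col6a2, of the microfibril collagen VI, at 719.6 and 739 CPM (Mild) against 482 and 359 CPM (Moderate). Of 22 matrix glycoproteins and proteoglycans, 7 lay higher and 3 lower (median 0.03). Thbs1 stood at 4.77 and 7.05 CPM (Mild) against 25.5 and 25.8 CPM (Moderate), the proteoglycan versican (Vcan) at 139 and 172 CPM (Mild) against 336 and 317 CPM (Moderate) and tenascin C (Tnc), which is made in wounds, at 139.6 and 85.7 CPM (Mild) against 368 and 512 CPM (Moderate).

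The counts of further lists stand beside 29.2% of all genes tested in the Collagen gate that lay higher and 26.8% that lay lower. Contractile and perivascular genes lay higher in 6 of 12 and lower in none (median 0.45). Cnn1, smooth muscle calponin, stood at 3.21 and 0.587 CPM in the Mild libraries and 20.3 and 12.7 CPM in the Moderate libraries. Meningeal and perivascular fibroblast genes lay higher in 2 of 16 and lower in 6 (median -0.11). They were led by Ptgds at 1028 and 1457 CPM (Mild) against 217 and 92.1 CPM (Moderate) (-3.00). Igfbp3, a carrier of insulin-like growth factors, stood at 922 and 1299 CPM (Mild) against 232 and 363 CPM (Moderate) (-1.90), in a list with 4 of 20 higher and 3 lower (0.06). Eng, a TGF-beta co-receptor, stood at 176 and 165 CPM (Mild) against 91.5 and 74.4 CPM (Moderate), with 6 of 19 in its pathway higher and 4 lower (0.41), and the metalloproteinase inhibitor Timp1 at 6459 and 4409 CPM (Mild) against 3068 and 2717 CPM (Moderate), in a list with 2 of 15 higher and 6 lower (-0.31).

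The cell cycle lay higher in 11 of 21 and lower in 6 (0.14). The integrated stress response lay higher in 6 and lower in 4 of 16 (0.29). Glycolysis and hypoxia lay higher in 7 and lower in 4 of 20 (0.16). For all genes tested in this gate the shares were 29.2% higher and 26.8% lower. Oxidative phosphorylation (-0.12), antioxidant and iron genes (-0.31), immediate early genes (0.04) and the interferon response (-0.15) had medians of either sign. The astrocyte markers summed to 256 and 302 CPM in the Mild and 771 and 620 CPM in the Moderate Collagen cells, and their part in these values was not tested.

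**Figure D5:**
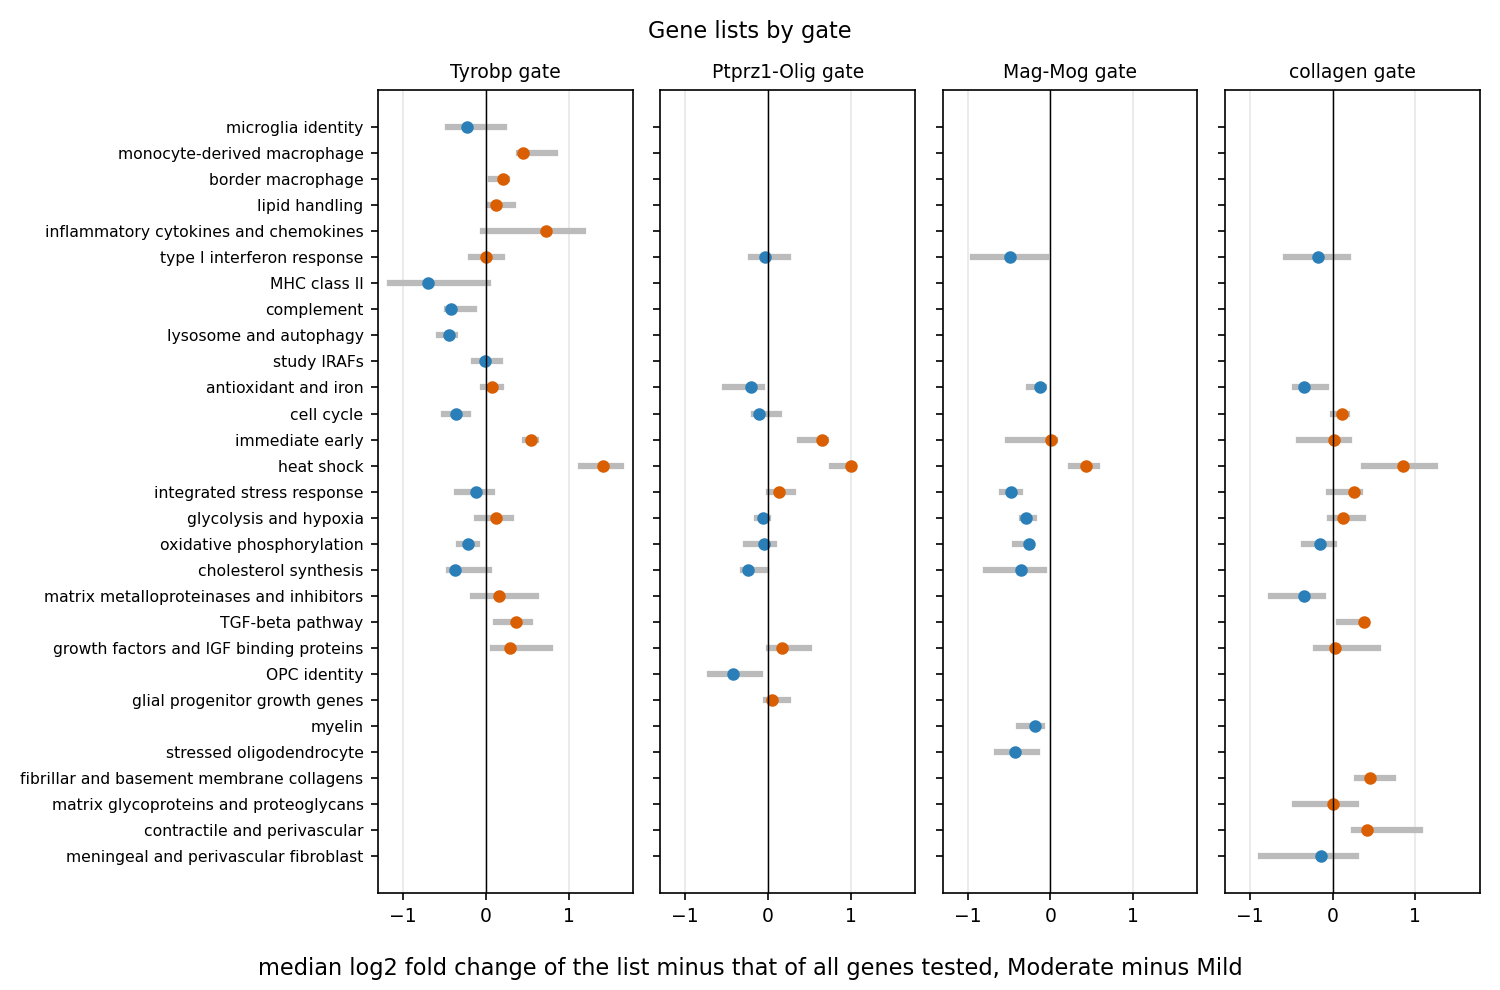
Median log2 change, Moderate over Mild, of each gene list less the median of all genes tested, in 1 panel per gate, as a point (orange above 0, blue below) with a grey bar for its range over the alternative settings. The heat shock list lies above 0 with its whole bar in each gate, from 0.25 at the lowest in Mag-Mog to 1.64 at the highest in Tyrobp cells.

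A change that passed in one gate and not in another is not by itself a difference between them, and the test of the difference over 14484 genes gave few calls. Cells that passed both gates of a pair were counted on both sides of it. Between the Mag-Mog and Collagen gates 8 genes passed (0.0552%), between Ptprz1-Olig and Mag-Mog 2 (0.0138%), between Tyrobp and Mag-Mog 1 and between Tyrobp and Collagen 1 (0.0069% each), and in the other pairs of gates 0, with Benjamini-Hochberg adjustment of edgeR's quasi-likelihood test. Hebp2, a haem-binding protein, stood at 37.7 and 36.7 CPM in the Mild and 2.77 and 1.38 CPM in the Moderate Mag-Mog cells, against 5.67 and 5.29 and then 6.70 and 4.85 CPM in Collagen cells. Its log2 change in Mag-Mog cells less that in Collagen cells was -4.19 ± 0.38 (SE, adjusted p = 0.00016). The Moderate values for Hebp2 in Mag-Mog cells stand on 13 and 8 UMIs, against 630 and 963 UMIs in the Mild libraries. The same difference for Cox5a, given above for Mag-Mog cells, was -0.86 ± 0.12 (adjusted p = 0.0215).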

How the data were processed

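The authors deposited 1 table of raw UMI counts per library from 10x Genomics Chromium 3' V3 libraries, aligned to Rnor_6.0 with Cell Ranger (5.0.1 in the file headers, 6.0.1 in the study's methods). The tables hold 32623 features and already called cells. Counts were summed per library over the kept cells and over each gate with Python 3.11.15, numpy 2.4.6, pandas 2.3.3, scipy 1.17.1 and scanpy 1.11.5, and tested in R 4.3.3 with edgeR 4.0.16 (filterByExpr, TMM, robust quasi-likelihood fit of the 6 injured libraries, Benjamini-Hochberg over all genes tested). DESeq2 1.42.0 was an alternative. Scripts were tested on simulated data. Doublets were kept in the values given and removed with Scrublet in an alternative (the highest 7.7% of scores). Shares of cells with a UMI used cells thinned to 1000 UMIs. Libraries were grouped by their titles.

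The gates, the genes and the 29 gene lists were chosen with earlier results of these data known. Named genes are, for each population, up to 5 of the largest changes in each direction among genes that passed, had a mean of at least 50 CPM and did not overlap, filled to 3 by p, plus up to 4 members of each list by p and the 8 autophagy factors. A single gene that this rule picks is not reported here. Some list genes could not be matched by symbol and are not analysed here, among them Ccr2, Plac8, Hspa1a and Sox4. Figures were drawn with matplotlib 3.10.9.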

Additional observations from a re-analysis of the deposited data

Results flagged for a closer look

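The results given here are the genes whose change, Moderate over Mild, differed between 2 gates in a test of that difference (edgeR's quasi-likelihood test with Benjamini-Hochberg adjustment over 14484 genes in each pair, 6 injured libraries). Values are the log2 change in the first gate less that in the second. Groups of 2 libraries are too small to look for an outlying library.

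Hebp2 was found in 3 pairs, at -4.19 for Mag-Mog less Collagen (adjusted p = 0.00016), 2.76 for Ptprz1-Olig less Mag-Mog (0.00772) and 3.14 for Tyrobp less Mag-Mog (0.00168). It stood at 19.6 and 22.0 CPM in the Mild and 9.44 and 6.21 CPM in the Moderate Ptprz1-Olig cells, and at 9.70 and 13.4 against 6.63 and 4.37 CPM in Tyrobp cells. The shift in Mag-Mog cells, from 37.7 and 36.7 to 2.77 and 1.38 CPM, is the common side of all 3 pairs, and the Moderate values there stand on 13 and 8 UMIs.

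Ucn2, the peptide urocortin 2, was found in 2 pairs with the Collagen gate, at -1.93 for Mag-Mog less Collagen (adjusted p = 0.0313) and -2.48 for Tyrobp less Collagen (0.00949). It stood at 6.83 and 5.58 CPM in the Mild and 13.3 and 27.3 CPM in the Moderate Collagen cells, at 12.1 and 11.9 against 3.99 and 10.2 CPM in Tyrobp cells, and at 113 and 73.5 against 38.0 and 133 CPM in Mag-Mog cells, where the groups overlap.

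Sptbn1, a spectrin of the membrane skeleton, gave -1.29 for Ptprz1-Olig less Mag-Mog (adjusted p = 0.00772), with 89.1 and 138 CPM against 88.7 and 94.4 CPM in the former and 78.0 and 109.9 against 180.3 and 190.4 CPM in the latter.

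The other 6 genes of the Mag-Mog and Collagen pair were found once each. Cox5a gave -0.86, with 425 and 438 CPM in the Mild and 344 and 288 CPM in the Moderate Collagen cells. The proteasome subunit Psmb10 gave -1.21, with 139.9 and 131 CPM against 70.8 and 41.7 CPM in Mag-Mog cells. Mrps6, a mitochondrial ribosomal protein, gave -1.055, and Dnajc21, a ribosome-assembly chaperone, gave -1.04. On the other side, the nuclear receptor Nr4a2 gave 2.205, with 30.7 and 36.4 against 19.6 and 13.3 CPM in Collagen cells and 5.68 and 4.99 against 12.8 and 11.2 CPM in Mag-Mog cells. Dmkn, the secreted protein dermokine, gave 3.95, with levels of at most 16.5 CPM in any of these sums.

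The count of 12 such differences was not stable. It was 231 with the 4 libraries of the comparison alone, 51 without Mild replicate 1, 5 without Mild replicate 2, 26 without Moderate replicate 1 and 2 without Moderate replicate 2.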

How the results depend on the processing

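With 2 libraries a group, calls depend on how the spread is estimated, and the size of a change alone did not decide a call. Dnaja1 passed in Ptprz1-Olig cells at a log2 change of 0.94, while Ptgds did not in Collagen cells at -3.005. No called gene that is named reversed under any alternative, but 213 of their 750 alternative values missed the threshold. Counts of calls are given in the order all cells, Tyrobp, Ptprz1-Olig, Mag-Mog and Collagen (48, 7, 259, 13 and 0 as reported). DESeq2 called 1319, 1051, 601, 795 and 666. The fit of all 8 libraries called 0 in all cells and Tyrobp, 4 in Ptprz1-Olig and 2 in Mag-Mog cells. No low-count filter gave 383, 464, 1029, 1487 and 1570. Only the Mild and Moderate libraries gave 274, 225, 567 and 1053. Library size alone gave 161 in Ptprz1-Olig and 310 in Mag-Mog cells, and the median log2 change of all genes, 0.01 to 0.03 over the populations as reported, was then 0.05 to 0.21. Cells in only 1 gate gave 548 in Ptprz1-Olig and 589 in Mag-Mog cells, doubled thresholds 177 in Mag-Mog cells, and removal of called doublets 74 in all cells and 450 in Mag-Mog cells. A mitochondrial limit of 20% gave 22 in all cells, and the C1q gate added to Tyrobp gave 68. Leaving out 1 library gave 0 to 265, 0 to 228, 16 to 536, 0 to 1056 and 0 to 8. Differences between gates (12) went to 177 by library size, 54 with no filter, 231 with 4 libraries, 224 in cells of only 1 gate, and 2 to 251 with 1 library left out. With the replicate block the counts were 322, 35, 225 and 25, and 0 in Collagen cells. Same-numbered Mild and Moderate libraries deviated together (r = 0.29, 0.14, 0.17, 0.13 and 0.28), but only 2 pairs share a number and no source ties them. Signs reversed in Tyrobp cells for 3 genes that were not called. Hspa8 was 0.022 without Mild replicate 1 and 0.0447 without Moderate replicate 1 (range with 1 library left out -0.309 to 0.0447), Hspa5 was -0.0349 in cells of only 1 gate, -0.0626 without Mild replicate 2 and -0.202 without Moderate replicate 2 (-0.202 to 0.259), and Hdac1 was 0.0393 by library size, 0.0166 without Mild replicate 1 and 0.00263 without Moderate replicate 2 (-0.101 to 0.0166). The difference in Tyrobp share ran from -0.84 to 9.06 percentage points, negative without Mild replicate 2, and that in Ptprz1-Olig share from -0.90 to 7.16, negative without Moderate replicate 2. The Mag-Mog share difference kept its sign, from -16.8 to -7.50. The cause of these shifts was not tested.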

Other observations

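Several features outside the gene lists were far apart between the groups, picked after their values were seen and given as plain CPM over all cells. LOC100360791 stood at 1.06 CPM in both Mild libraries and at 122 and 350 CPM in the Moderate libraries (log2 change 7.64, adjusted p = 0.0465 from edgeR), with 52.8 and 93.0 CPM in the Sham and 1.15 and 5.04 CPM in the Severe libraries. LOC685048 stood at 18.3 and 15.9 CPM against 1.29 and 1.31 CPM (-3.83, adjusted p = 0.0191). Rpph1, the RNA of ribonuclease P, stood at 0.149 and 0.133 CPM against 4.18 and 2.33 CPM (adjusted p = 0.117).

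Features of the mitochondrial genome that carry no gene symbol were also higher in both Moderate libraries. The 22 least abundant of them summed to 0.791 and 1.29 CPM in the Mild and 17.8 and 35.5 CPM in the Moderate libraries, with 16.0 and 6.69 CPM in the Sham and 1.09 and 0.0931 CPM in the Severe libraries. The most abundant feature of this kind stood at 628 and 742 CPM (Mild) against 1430 and 3271 CPM (Moderate). It was higher still in the Severe libraries, at 6205 and 3402 CPM, with 5190 and 1266 CPM in the Sham libraries. The next stood at 194 and 253 CPM (Mild), 616 and 1656 CPM (Moderate), 1004 and 603 CPM (Severe) and 1703 and 312 CPM (Sham). Neither passed edgeR's test (adjusted p = 0.1295 and 0.102). The 13 Mt- genes overlapped between the groups, at 50300 and 48320 CPM against 46140 and 54890 CPM.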
